A study of Mus musculus with 6 samples.

Results

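Quiescence and niche markers of muscle stem cells are the surface receptors, adhesion molecules, secreted factors and transcription factors by which resting stem cells of skeletal muscle are recognised or kept in place. The 10 genes described here are Calcr, Cd34, Chrdl2, Tek, Sdc3, Sdc4, Vcam1, Cxcr4, Foxo1 and Foxo3, chosen by name, and each had 1 row among the 32973 rows of the table. These genes and the gene lists below were chosen with earlier results of these data known. Counts within them are therefore not independent of the data. RNA was sequenced from primary mouse muscle stem cells of skeletal muscle that had been sorted by flow cytometry and kept for 3 days in culture. The knockout cells (Med23KO, 3 libraries) had the genotype Med23flox/flox::Pax7CreERT2, and the control cells (Ctrl, 3 libraries) the genotype Med23flox/flox, so the loxP-flanked alleles were present in both groups and the Cre recombinase in the knockout alone. All cells grew on type I collagen in F10 medium with 20% serum and 5 ng/ml basic fibroblast growth factor. The Cre is driven by Pax7 and is of the tamoxifen-inducible kind. The labels give no treatment and no age, and no group carried the Cre alone, so effects of Cre and of Med23 loss cannot be told apart. They also do not say whether each library stands for its own animal or culture, so the p-values below reflect spread among libraries that may be technical.

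In resting muscle, a stem cell lies between the fibre and its basement membrane. Signals from both sides hold it out of the cell cycle: the calcitonin receptor, the angiopoietin receptor TIE2 (encoded by Tek) and Notch act on the cell from outside, and the FOXO transcription factors act in the nucleus. Syndecans, CXCR4, VCAM1 and CD34 sit on the cell surface, where they bind growth factors, chemokines and other cells, and are used to sort these cells. When muscle is injured or the cells are placed in culture, they are activated, express MyoD and divide. The series holds no uncultured cells, so a decline from the resting level cannot be measured here. What can be measured is which markers were still expressed and whether knockout and control cells differed.

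After 3 days in culture, 7 of the 10 markers had at least 1 FPKM in all 6 libraries: Sdc4, Cxcr4, Sdc3, Vcam1, Foxo1, Foxo3 and Cd34. FPKM are fragment numbers per length of transcript and per size of library, so levels can be set side by side between genes. Tek lay close to 1 FPKM, and Chrdl2 and Calcr lay below 0.4 FPKM in each library. None of the 7 markers with a mean of at least 1 FPKM differed between knockout and control cells (limma, a linear model fitted to all genes, Benjamini-Hochberg adjusted p at or above 0.05). That count of 0 stands beside 2.91% of the 12336 genes tested, and 0 of the 7 had an unadjusted p under 0.05, against 19.7% of all tested genes. In these 7 genes the libraries of both groups overlapped, beside 24.7% of all tested genes without overlap. This depended on scaling: with libraries scaled to equal medians, Cxcr4 and Sdc4 did not overlap, beside 25.03% of all tested genes. In the authors' deposited table, whose Cuffdiff test took in 8 of the 10, 1 was called, Tek, beside 15.7% of the genes tested there. These are bulk libraries, in which fewer cells of a type and less RNA per cell cannot be told apart.

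**Figure D1:**
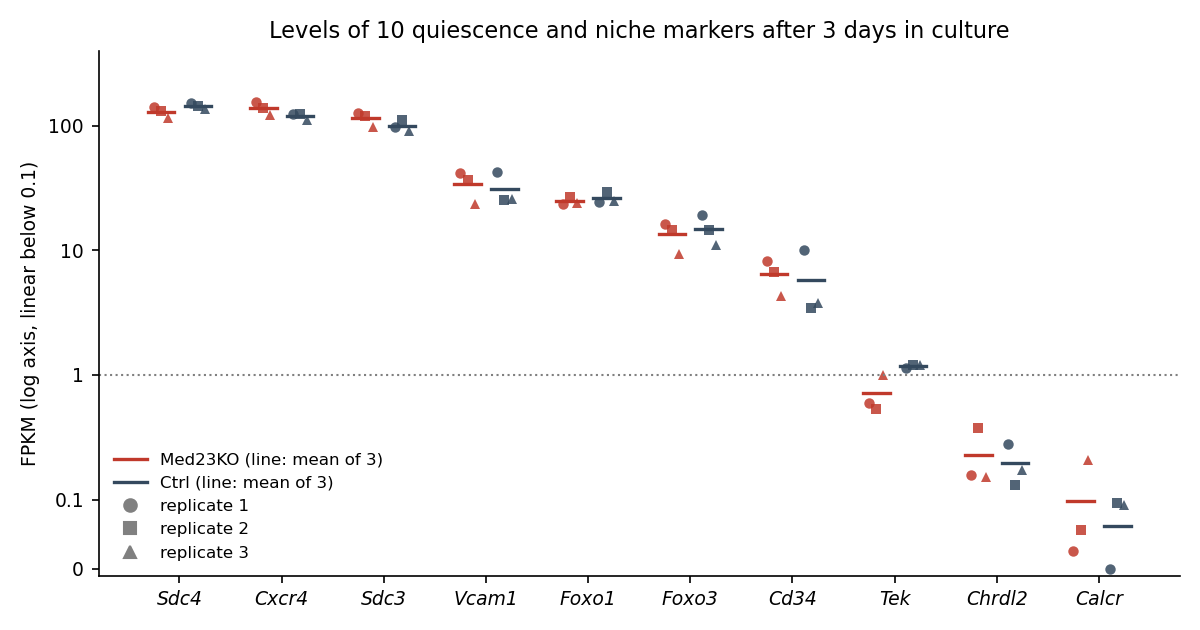
FPKM of the 10 markers in each library (log axis, linear below 0.1), ordered by their mean over all 6 libraries, with Med23KO left of Ctrl; points are libraries, horizontal lines are means of 3 and the dotted line is 1 FPKM. Sdc4, Cxcr4 and Sdc3 lie near 100 FPKM, Cd34 between 3.42 and 10.1 FPKM, and Chrdl2 and Calcr below 0.4 FPKM, and Tek alone has all 3 Med23KO points below all 3 Ctrl points.

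Med23 RNA was lower in the knockout libraries but not absent, and further limits touch these genes. Med23 itself, a subunit of the Mediator complex, had 5.10, 5.86 and 4.23 FPKM in Med23KO replicates 1, 2 and 3, against 10.4, 11.7 and 10.2 FPKM in Ctrl replicates 1, 2 and 3. Its Med23KO mean was 47.1% of the Ctrl mean (log2 fold change -0.96, limma adjusted p = 0.0197). Whether the remaining RNA came from recombined or unrecombined alleles was not tested. The sum of all FPKM ran from 599738 to 675095 in Med23KO libraries and from 697886 to 746973 in Ctrl libraries, lowest in Med23KO replicate 3. Med23KO replicate 3 was also the lowest of its group for 6 of the 7 tested markers, as it was for 56.2% of all tested genes. The stem cell factor Pax7 had 60.3, 53.0 and 32.4 FPKM in Med23KO and 57.7, 46.6 and 34.5 FPKM in Ctrl libraries. Of 10 markers of blood cells, the summed level was 22.6 to 50.1 FPKM in Med23KO and 22.2 to 39.7 FPKM in Ctrl libraries, mostly from Lyz2 and Laptm5, with Ptprc at most 0.09 FPKM in each library. Markers of mural cells summed to 14.0 to 19.9 FPKM in Med23KO and 12.7 to 21.3 FPKM in Ctrl libraries, and those of Schwann cells to 29.0 to 146 FPKM in Med23KO and 19.5 to 53.8 FPKM in Ctrl libraries, nearly all from Ngfr. Those of muscle stem cells summed to 1128 to 1939 FPKM in Med23KO and 1240 to 1918 FPKM in Ctrl libraries. None of the tested genes of these lists passed. Read depth is not known, so counting error cannot be set apart from other spread.

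The levels of the markers can be set beside the sequence at their starts. Of the 10 genes, 8 matched a RefSeq promoter window (250 bases before to 50 after the start, GRCm38.p6), and 2 windows are shown because they come from a marker that stayed expressed and one that was low. Capitals mark CG dinucleotides, which read the same on both strands and whose density separates most broadly used promoters from tissue-restricted ones.
Foxo1: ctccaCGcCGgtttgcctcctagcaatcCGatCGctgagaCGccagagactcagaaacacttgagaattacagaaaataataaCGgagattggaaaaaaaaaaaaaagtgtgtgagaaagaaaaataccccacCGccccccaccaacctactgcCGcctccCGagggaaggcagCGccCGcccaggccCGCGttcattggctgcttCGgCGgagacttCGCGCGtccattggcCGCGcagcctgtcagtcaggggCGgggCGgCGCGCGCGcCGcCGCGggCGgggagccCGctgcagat
Tek: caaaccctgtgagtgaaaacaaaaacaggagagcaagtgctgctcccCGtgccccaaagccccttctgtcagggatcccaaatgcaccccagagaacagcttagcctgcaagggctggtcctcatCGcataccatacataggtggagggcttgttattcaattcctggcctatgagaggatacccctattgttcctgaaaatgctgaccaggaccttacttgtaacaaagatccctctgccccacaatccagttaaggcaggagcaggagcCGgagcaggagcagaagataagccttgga
The Foxo1 window (chr3:52268087-52268386, plus strand) holds 31 CG dinucleotides, and the Tek window (chr4:94739039-94739338, plus strand) holds 3. Sdc3, Foxo3, Sdc4 and Cxcr4, all expressed, had 44, 35, 22 and 20 in their windows. Cd34, the lowest of the expressed markers, had 7. Calcr has a pair of annotated starts, with 29 and 4 CG dinucleotides. Across all genes matched by symbol, the median was 22 for the 8236 genes with at least 1 FPKM in all 6 libraries and 4 for the 10364 genes with a mean under 1 FPKM. Of the first group 59.8% held at least 20, against 12.9% of the second. The order among the markers is a description of these windows only.

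The 3 most abundant markers lay between 90.0 and 155 FPKM and between the 95.8th and 97.7th percentile of expressed genes in each library. In Med23KO cells the order was Cxcr4, Sdc4, Sdc3, Vcam1, Foxo1, Foxo3, Cd34, Tek, Chrdl2 and Calcr, and the ranges of Cxcr4 and Sdc4, Sdc4 and Sdc3, Vcam1 and Foxo1, and Chrdl2 and Calcr overlapped. In Ctrl cells Sdc4 stood above Cxcr4 without overlap, and the rest of the order was the same, with overlap between Cxcr4 and Sdc3 and between Vcam1 and Foxo1. The ranges of all other neighbours in these orders did not overlap.

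Sdc4 and Sdc3 encode syndecans, transmembrane proteoglycans whose heparan sulphate chains hold growth factors such as fibroblast growth factor at the cell surface. Sdc4 (ENSMUSG00000017009.3, mm10 chromosome 2, 164424247 to 164443887 on the minus strand) had 142, 132 and 116 FPKM in Med23KO replicates 1, 2 and 3, against 153, 144 and 138 FPKM in Ctrl replicates 1, 2 and 3. Med23KO replicate 1 lay inside the control range and the other Med23KO libraries below it. The means were 130.0 ± 12.7 FPKM in Med23KO and 145 ± 7.70 FPKM in Ctrl (SD, n = 3 each), and the log2 fold change was -0.16 (SE 0.102, 95% interval -0.40 to 0.08), with a limma adjusted p of 0.456. Fold changes were all taken on log2(FPKM + 1). Sdc3 (ENSMUSG00000025743.14, chromosome 4, 130792537 to 130826319 on the plus strand) had 127, 120.2 and 98.1 FPKM in Med23KO and 98.0, 112 and 90.0 FPKM in Ctrl replicates 1, 2 and 3. Its groups overlapped through Med23KO replicate 3. The antisense gene Gm26716 over Sdc3 had at most 0.678 FPKM, and whether fragments were counted by strand is not given. The log2 fold change was 0.20 (SE 0.130, 95% interval -0.10 to 0.50, limma adjusted p = 0.458), so a change of more than about 1.42-fold upward lies outside the interval.

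The other syndecans gave the clearest contrast within a family. Sdc1, which like Sdc3 and Sdc4 carries heparan sulphate, had 18.5, 18.0 and 20.5 FPKM in Med23KO and 35.9, 43.2 and 42.2 FPKM in Ctrl replicates 1, 2 and 3. It fell in the knockout by 1.05 on the log2 scale (SE 0.110), with a limma adjusted p of 0.0104. Sdc2 had 51.3 ± 1.20 FPKM in Med23KO and 51.1 ± 0.943 FPKM in Ctrl (SD, n = 3), and its log2 fold change was 0.01 with a 95% interval of -0.18 to 0.19. The ratio of 2 genes within a library does not depend on how the library was scaled. On the log2 scale, Sdc1 over Sdc4 averaged -2.77 ± 0.233 in Med23KO and -1.84 ± 0.214 in Ctrl, and Sdc1 over Sdc3 averaged -2.59 ± 0.292 in Med23KO and -1.30 ± 0.187 in Ctrl (SD, n = 3). Sdc3 over Sdc4 averaged -0.18 ± 0.0613 in Med23KO and -0.54 ± 0.150 in Ctrl. In each of the 3 ratios all Med23KO libraries lay on one side of all Ctrl libraries. For each, the two-sided exact permutation p was 0.1, the smallest that 3 against 3 libraries allow, and adjusted p = 0.1 over the 4 ratios compared, which were chosen after their values were seen.

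Of 12 genes of the syndecan family, their adaptor and the heparan sulphate enzymes, 11 were tested, 1 rose, 1 fell and 9 did not pass, with a median log2 fold change of 0.01, beside -0.03 over all tested genes. The rise was in Sulf1, an enzyme that removes sulphate groups from heparan sulphate outside the cell. It had 13.9, 12.2 and 10.2 FPKM in Med23KO and 7.98, 6.30 and 6.48 FPKM in Ctrl libraries (log2 fold change 0.73, SE 0.145; adjusted p = 0.0465 by limma). Its groups did not overlap. The glypican gene Gpc1, another heparan sulphate carrier, had values between 81.6 and 124 FPKM in Med23KO and between 78.8 and 107 FPKM in Ctrl libraries.

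**Figure D2:**
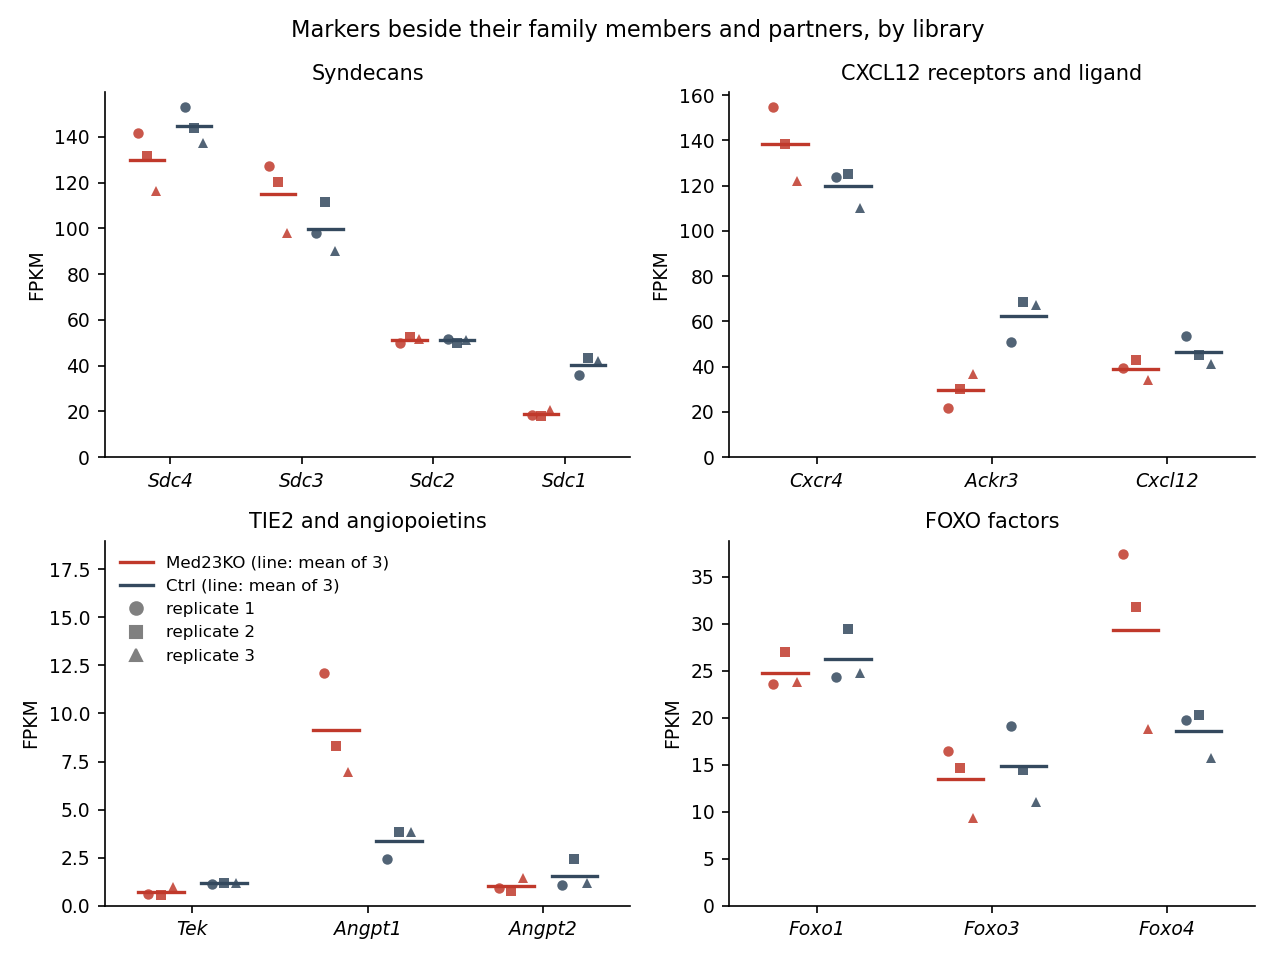
FPKM by library of markers beside their family members and partners, with Med23KO left of Ctrl for each gene; points are libraries, horizontal lines are means of 3, and each axis starts at 0. Sdc1 and Ackr3 are lower and Angpt1 higher in all 3 Med23KO libraries than in all 3 Ctrl libraries, while Sdc4, Sdc3, Sdc2, Cxcr4, Foxo1 and Foxo3 overlap.

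Cxcr4 encodes the receptor for the chemokine CXCL12, which guides the migration of muscle stem cells and of many other cells. Cxcr4 (ENSMUSG00000045382.6, chromosome 1, 128588199 to 128592293 on the minus strand) had 155, 139 and 122 FPKM in Med23KO and 124, 125 and 110.3 FPKM in Ctrl replicates 1, 2 and 3. Both of the other Med23KO libraries lay above all controls, and Med23KO replicate 3 lay inside the control range. The means were 138 ± 16.3 FPKM in Med23KO and 119.7 ± 8.15 FPKM in Ctrl (SD, n = 3), and the log2 fold change was 0.20 (SE 0.113, 95% interval -0.06 to 0.47), which did not pass (limma adjusted p = 0.377). Without Med23KO replicate 3 it was 0.29 (adjusted p = 0.133). With the replicate number as a block, Cxcr4 passed (limma adjusted p = 0.0486), as did 22.3% of all tested genes. The ligand Cxcl12 was made by the same cultures, at 39.4, 43.1 and 34.2 FPKM in Med23KO and 53.7, 45.0 and 41.0 FPKM in Ctrl libraries (log2 fold change -0.25, adjusted p = 0.363).

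Ackr3, the second receptor of CXCL12, which takes the chemokine up and degrades it, fell. It had 21.9, 30.0 and 36.9 FPKM in Med23KO and 51.0, 68.5 and 67.5 FPKM in Ctrl libraries, a log2 fold change of -1.07 with an SE of 0.200 and a limma adjusted p of 0.0384. With libraries scaled to equal medians the adjusted p was 0.0536. The log2 ratio of Ackr3 over Cxcr4 averaged -2.25 ± 0.548 in Med23KO and -0.95 ± 0.294 in Ctrl (SD, n = 3). The groups did not overlap, and the two-sided exact permutation p was 0.1, its smallest value.

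Tek encodes TIE2, a receptor tyrosine kinase best known from blood vessel cells, whose ligand angiopoietin 1 has been linked to the return of muscle stem cells to rest. Tek (ENSMUSG00000006386.15, chromosome 4, 94739289 to 94874976 on the plus strand) had 0.595, 0.537 and 0.997 FPKM in Med23KO and 1.14, 1.20 and 1.20 FPKM in Ctrl replicates 1, 2 and 3. All Med23KO libraries lay below all Ctrl libraries, as groups did not overlap in 21.0% of the 1091 genes with a mean between 0.5 and 1 FPKM. The mean was 0.710 ± 0.251 FPKM in Med23KO and 1.18 ± 0.0354 FPKM in Ctrl (SD, n = 3), 60.1% of the control level. Tek missed the filter of a mean of at least 1 FPKM. In a fit without the filter its log2 fold change was -0.36 (SE 0.125) and did not pass (limma unadjusted p = 0.0259, adjusted p = 0.243), where 0.767% of 20466 genes passed. The authors' deposited table called it lower (q = 0.0235), as it did 7.04% of its tested genes.

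Levels of this size were also seen for genes that mark blood vessel cells. Of 12 endothelial markers 0 were at 0 in any library, and their summed level was 17.4 to 20.8 FPKM in Med23KO and 11.3 to 23.4 FPKM in Ctrl libraries. Pecam1 had 2.11, 1.40 and 2.13 FPKM in Med23KO and 1.27, 2.07 and 1.10 FPKM in Ctrl libraries. Tie1, the partner receptor of TIE2, had at most 0.44 FPKM. None of the 5 endothelial markers tested passed in either direction, and their part in the level of Tek was not tested. Among the ligands, Angpt1 rose, with 12.1, 8.29 and 6.98 FPKM in Med23KO and 2.45, 3.81 and 3.82 FPKM in Ctrl libraries (log2 fold change 1.20, SE 0.219; adjusted p = 0.0366 by limma). Its groups did not overlap. Angpt2, which mostly opposes angiopoietin 1 at the receptor, had 1.05 ± 0.353 FPKM in Med23KO and 1.56 ± 0.756 FPKM in Ctrl (SD, n = 3; adjusted p = 0.553).

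Calcr encodes the calcitonin receptor, one of the most specific markers of resting muscle stem cells in mice, which is lost as they are activated. Calcr (ENSMUSG00000023964.15, chromosome 6, 3685680 to 3764714 on the minus strand) had 0.0258, 0.0564 and 0.209 FPKM in Med23KO and 0, 0.0947 and 0.0926 FPKM in Ctrl replicates 1, 2 and 3. Its highest library was Med23KO replicate 3 and its lowest Ctrl replicate 1, where it is listed at 0, which in such a table can also be a failed estimate. Between the 1.6th and 18.4th percentile of genes above 0, it was the lowest of the 10 markers in both groups. Without the filter its log2 fold change was 0.04 (SE 0.0730; adjusted p = 0.824 by limma). The gene hosts miR-489, a miRNA known from resting muscle stem cells of mice, whose mature form the poly(A) libraries do not measure. Its 3p arm (RefSeq, GRCm38.p6, chr6:3721922-3721944, minus strand) is printed with its seed, bases 2 to 8, in capitals because it is a second product of the Calcr locus with a known role in the resting state.
mmu-miR-489-3p: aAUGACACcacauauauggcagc
The receptor activity-modifying proteins, which pair with the calcitonin receptor or its relative Calcrl and change the ligand they bind, were measured too. Ramp3 rose, with 3.22, 2.63 and 1.47 FPKM in Med23KO and 0.492, 0.599 and 0.279 FPKM in Ctrl libraries (log2 fold change 1.21, SE 0.224; adjusted p = 0.0378 by limma). Calcrl, the receptor for adrenomedullin and calcitonin gene-related peptide, had 16.9, 16.2 and 9.55 FPKM in Med23KO and 6.46, 4.58 and 7.56 FPKM in Ctrl libraries. Its groups did not overlap, and its log2 fold change of 1.06 missed the threshold (adjusted p = 0.0652). Ramp1 was below 1 FPKM in each library, and Ramp2 had 4.49 to 7.18 FPKM in Med23KO and 5.17 to 9.07 FPKM in Ctrl libraries.

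Vcam1 and Cd34 encode surface glycoproteins used to sort muscle stem cells. VCAM1 binds integrin alpha 4 beta 1 on other cells, and CD34 is a sialomucin that lowers adhesion. Vcam1 (ENSMUSG00000027962.14, chromosome 3, 116109949 to 116129688 on the minus strand) had 42.1, 36.6 and 23.6 FPKM in Med23KO and 42.2, 25.5 and 25.7 FPKM in Ctrl replicates 1, 2 and 3. Replicate 1 was the highest in both groups, and the ranges nearly coincided. The log2 fold change was 0.13 (SE 0.259, 95% interval -0.48 to 0.73, limma adjusted p = 0.844). Without Med23KO replicate 3 it was 0.36 (adjusted p = 0.326), and without Med23KO replicate 1 it was -0.04 (adjusted p = 0.966).

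Cd34 (ENSMUSG00000016494.9, chromosome 1, 194938819 to 194961279 on the plus strand) had 8.27, 6.75 and 4.33 FPKM in Med23KO and 10.1, 3.42 and 3.76 FPKM in Ctrl replicates 1, 2 and 3. Ctrl replicate 1 was the highest of all libraries and the other controls the lowest. The log2 fold change of 0.24 therefore had the widest interval of the 7 markers, -0.63 to 1.10 (SE 0.370, limma adjusted p = 0.790). It ran from -0.00 to 0.66 over the fits without 1 library, highest without Ctrl replicate 1 (adjusted p = 0.235). Its relative Podxl had at most 1.10 FPKM in Med23KO and 1.44 FPKM in Ctrl libraries. The VCAM1 partner Itgb1 was abundant, at 223 ± 31.4 FPKM in Med23KO and 211 ± 35.6 FPKM in Ctrl (SD, n = 3). Itga4 stayed below 1 FPKM, at 0.850, 0.954 and 0.627 in Med23KO and 0.550, 0.350 and 0.276 in Ctrl libraries. Its groups did not overlap, as in 21.0% of genes with a mean of 0.5 to 1 FPKM. It did not pass without the filter (limma adjusted p = 0.181), and its q in the authors' Cuffdiff test was 0.000695.

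CD34 is also made by fibro-adipogenic progenitors and blood vessel cells, and VCAM1 by activated forms of both. Of 12 markers of fibro-adipogenic progenitors and fibroblasts, the summed level was 252 to 389 FPKM in Med23KO and 185 to 243 FPKM in Ctrl libraries, most of it from Col3a1, with Pi16 listed at 0 or at most 0.04 FPKM and Dpt at most 0.25 FPKM. None of the 10 tested passed, 9 lay above 0 and their median log2 fold change was 0.52. With library weights 6 of the 10 were higher by limma, and without Med23KO replicate 3 it was 2 of the 10, with 0 lower in either fit. Of all 12336 tested genes, 850 were higher with library weights and 749 without Med23KO replicate 3. Their part in the values of Cd34 and Vcam1 was not tested.

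Chrdl2 encodes a secreted chordin-like protein that binds bone morphogenetic proteins. Chrdl2 (ENSMUSG00000030732.13, chromosome 7, 100006172 to 100034728 on the plus strand) had 0.158, 0.373 and 0.150 FPKM in Med23KO and 0.280, 0.131 and 0.174 FPKM in Ctrl replicates 1, 2 and 3. Med23KO replicate 2 lay above all controls and the other Med23KO libraries inside the control range. Without the filter the log2 fold change was 0.04 (SE 0.0865; adjusted p = 0.882 by limma). The related antagonist genes Chrd and Chrdl1 also stayed below 1 FPKM. Bmp4, one of the ligands they bind, had 6.08, 3.61 and 1.54 FPKM in Med23KO and 1.67, 1.33 and 0.694 FPKM in Ctrl libraries (log2 fold change 0.99, adjusted p = 0.190).

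Foxo1 and Foxo3 encode forkhead transcription factors that are held out of the nucleus when AKT phosphorylates them and that maintain the resting state of muscle stem cells. Foxo1 (ENSMUSG00000044167.6, chromosome 3, 52268336 to 52353221 on the plus strand) had 23.6, 27.0 and 23.8 FPKM in Med23KO and 24.4, 29.5 and 24.8 FPKM in Ctrl replicates 1, 2 and 3. Its libraries lay close together and overlapped, and its log2 fold change was -0.07 (SE 0.113, 95% interval -0.34 to 0.19), with a limma adjusted p of 0.784. The gene model Gm38034 lies inside Foxo1 on the same strand and had 8.95, 9.73 and 9.84 FPKM in Med23KO and 6.38, 8.02 and 7.13 FPKM in Ctrl libraries. Its groups did not overlap, fragments could have been split between both models, and the part of this in the values of Foxo1 was not tested. Foxo3 (ENSMUSG00000048756.11, chromosome 10, 42181841 to 42276755 on the minus strand) had 16.4, 14.7 and 9.36 FPKM in Med23KO and 19.1, 14.5 and 11.0 FPKM in Ctrl replicates 1, 2 and 3. Replicate 1 was the highest and replicate 3 the lowest in both groups. Its log2 fold change was -0.13 (SE 0.246, 95% interval -0.71 to 0.44, adjusted p = 0.829).

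Foxo1 exceeded Foxo3 in each library, by 1.44, 1.84 and 2.54 times in Med23KO and 1.28, 2.04 and 2.26 times in Ctrl replicates 1, 2 and 3. The third factor, Foxo4, was of a similar level, with 37.5, 31.8 and 18.8 FPKM in Med23KO and 19.8, 20.3 and 15.8 FPKM in Ctrl libraries. Med23KO replicate 3 lay inside the control range, and the log2 fold change of 0.58 did not pass (SE 0.242, limma adjusted p = 0.240). Without Med23KO replicate 3 it was 0.86 and passed (adjusted p = 0.0128). Foxo6 was below 1 FPKM.

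Of 10 tested FOXO family members and regulators, 1 rose and 0 fell, beside 1.49% and 1.42% of all tested genes. The gene that rose is a regulator and is not reported by name here. Among genes upstream of the FOXO factors, the kinase genes Akt1 and Akt2, whose products phosphorylate them, did not pass. Akt1 averaged 72.8 ± 10.02 FPKM in Med23KO and 78.9 ± 8.87 FPKM in Ctrl (SD, n = 3), with a log2 fold change of -0.12. Akt2 averaged 41.1 ± 10.3 FPKM in Med23KO and 35.1 ± 7.38 FPKM in Ctrl (SD, n = 3), with a log2 fold change of 0.21.

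Of 21 tested targets of the FOXO factors, 2 rose and 0 fell, beside 1.49% and 1.42% of all genes. The cyclin G2 gene Ccng2, which slows the cell cycle, had 44.6, 42.8 and 36.4 FPKM in Med23KO and 22.9, 21.4 and 22.6 FPKM in Ctrl libraries (log2 fold change 0.85, limma adjusted p = 0.0151). Bnip3, which acts in the removal of mitochondria, had 22.1, 23.0 and 15.5 FPKM in Med23KO and 10.3, 11.5 and 9.84 FPKM in Ctrl libraries (log2 fold change 0.86, adjusted p = 0.0378). Groups overlapped in neither gene. Txnip, a negative regulator of glucose uptake, had 29.3 ± 11.3 FPKM in Med23KO and 13.2 ± 1.98 FPKM in Ctrl (SD, n = 3) and did not pass (adjusted p = 0.111). The cell cycle inhibitor gene Cdkn1b had 24.4, 24.7 and 21.6 FPKM in Med23KO and 21.3, 23.3 and 19.6 FPKM in Ctrl libraries (adjusted p = 0.563). The median log2 fold change of the 21 was 0.14, beside -0.03 over all tested genes. Trim63, which encodes a muscle ubiquitin ligase, lay below the filter, at 0.693, 0.668 and 0.664 FPKM in Med23KO and 0.0485, 0.0755 and 0.0404 FPKM in Ctrl libraries, with no overlap. In the fit without the filter it was higher (log2 fold change 0.67, SE 0.0470; adjusted p = 0.0119 by limma), and Trim63 and Ccng2 were the 2 of 23 targets that passed there, while Bnip3 did not (adjusted p = 0.0786).

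**Figure D3:**
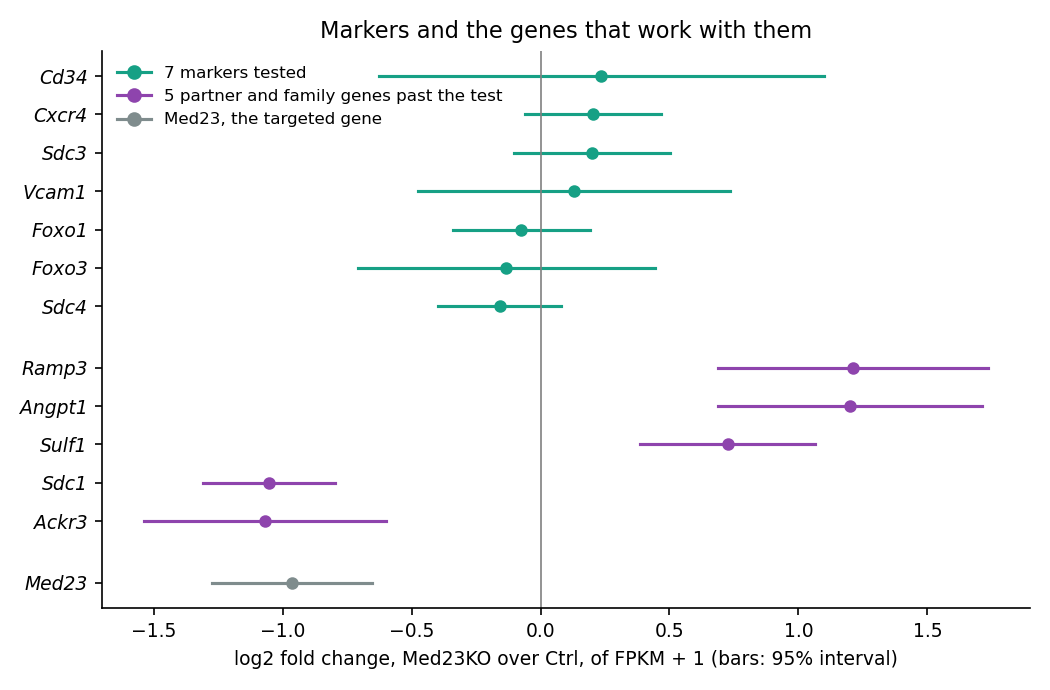
Log2 fold change of FPKM + 1, Med23KO over Ctrl, with 95% intervals from limma, for the 7 tested markers, for 5 partner and family genes past the test and for Med23. The intervals of all 7 markers include 0, and those of Sdc1 (-1.31 to -0.80), Ackr3, Sulf1, Angpt1 and Ramp3 do not.

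Together, 36 of 50 partner and family genes of the 10 markers were tested. Of these, 4 rose (among them Angpt1, Ramp3 and Sulf1) and 2 fell (Ackr3 and Sdc1), beside 2.91% of all tested genes called in either direction. Because the lists were chosen with earlier results known, these shares cannot be compared as a test of the partner genes. Each kept its direction in every alternative fit, and none of the 6 calls held in all fits without 1 library. Loss of calls was common to all genes: 13 to 1144 of the 12336 passed in these 6 fits, against 359 with all libraries. Med23 itself passed in 1 of the 6 (limma adjusted p up to 0.108). Sdc1 passed in 4 of 6 such fits and was lost without Med23KO replicate 2 or Ctrl replicate 2, with adjusted p-values up to 0.0792. Ackr3, Angpt1, Ramp3 and Sulf1 passed only without Med23KO replicate 3 and were lost without Med23KO replicate 1 or 2 or Ctrl replicate 1, 2 or 3. Their highest adjusted p-values were 0.181 for Ackr3, 0.155 for Angpt1, 0.185 for Ramp3 and 0.206 for Sulf1. Without the filter on low values, Sdc1 passed and these 4 did not (limma adjusted p between 0.0729 and 0.0911), and Sulf1 also missed without the trend (0.0532). Bnip3 and Met, given with the FOXO targets and the further niche genes, were likewise called only without Med23KO replicate 3, and Ccng2 and Cdkn1c also without Ctrl replicate 1.

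Of 29 tested further genes of quiescence and the niche, 1 rose and 1 fell. Cdkn1c, which encodes the cell cycle inhibitor p57, had 6.97, 7.07 and 5.09 FPKM in Med23KO and 2.46, 1.75 and 1.06 FPKM in Ctrl libraries (log2 fold change 1.44, SE 0.216; adjusted p = 0.0222 by limma). Met, the receptor for hepatocyte growth factor, the signal that activates resting cells, had 32.7, 41.2 and 52.2 FPKM in Med23KO and 81.4, 88.7 and 96.2 FPKM in Ctrl libraries (log2 fold change -1.08, SE 0.167, adjusted p = 0.0239). In both genes the groups did not overlap. Itga7, an integrin that binds laminin of the basement membrane and serves in sorting, had 59.7, 64.2 and 50.5 FPKM in Med23KO and 112, 104.7 and 79.1 FPKM in Ctrl libraries, and its log2 fold change of -0.74 missed the threshold (adjusted p = 0.0515). The cadherin gene Cdh2 had 27.8 ± 1.58 FPKM in Med23KO and 36.2 ± 2.07 FPKM in Ctrl (SD, n = 3; adjusted p = 0.0869). Without Med23KO replicate 3, 8 of the 29 were higher and 2 lower, beside 749 and 395 of all 12336 tested genes. The median over the 29 was 0.18 with all libraries and 0.31 without that library. Without Med23KO replicate 1 or 2 or Ctrl replicate 2 or 3, 0 of the 29 and 0 of the 21 FOXO targets passed, and without the filter 0 of the 30 quiescence and niche genes did. Few genes of any kind passed there: 55, 13, 23 and 71 of 12336 in those fits, in that order, and 157 of 20466 without the filter.

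The activation and cell cycle genes show the state in which the markers were measured. Myod1, the determination factor made on activation, had 964, 845 and 551 FPKM in Med23KO and 1170, 973 and 702 FPKM in Ctrl replicates 1, 2 and 3. The proliferation marker Mki67 had 85.3, 84.1 and 88.8 FPKM in Med23KO and 80.1, 82.3 and 96.5 FPKM in Ctrl libraries. None of the 16 tested passed, and their median log2 fold change was -0.16. The lowest adjusted p, 0.0740, belonged to the replication helicase gene Mcm5, at 40.0 ± 1.74 FPKM in Med23KO and 52.5 ± 3.44 FPKM in Ctrl (SD, n = 3). The cyclin D1 gene Ccnd1 had 131 ± 18.1 FPKM in Med23KO and 196 ± 41.8 FPKM in Ctrl (SD, n = 3; adjusted p = 0.124). The authors' deposited Cuffdiff table called Mcm5 (q = 0.0103) and Ccnd1 (q = 0.000695) lower, as it did 7.04% of its tested genes. Other genes named above that limma did not call also passed there. Among them, Calcrl, Foxo4, Txnip and Bmp4 were higher (Cuffdiff q = 0.000695 each), as were 1130 of 13123 genes. Itga7 (q = 0.000695) and Cdh2 (q = 0.0118) were lower. With the replicate number as a block, 6 of the 16 were lower by limma and 0 higher, beside 1577 and 1180 of all 12336 genes.

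**Figure D4:**
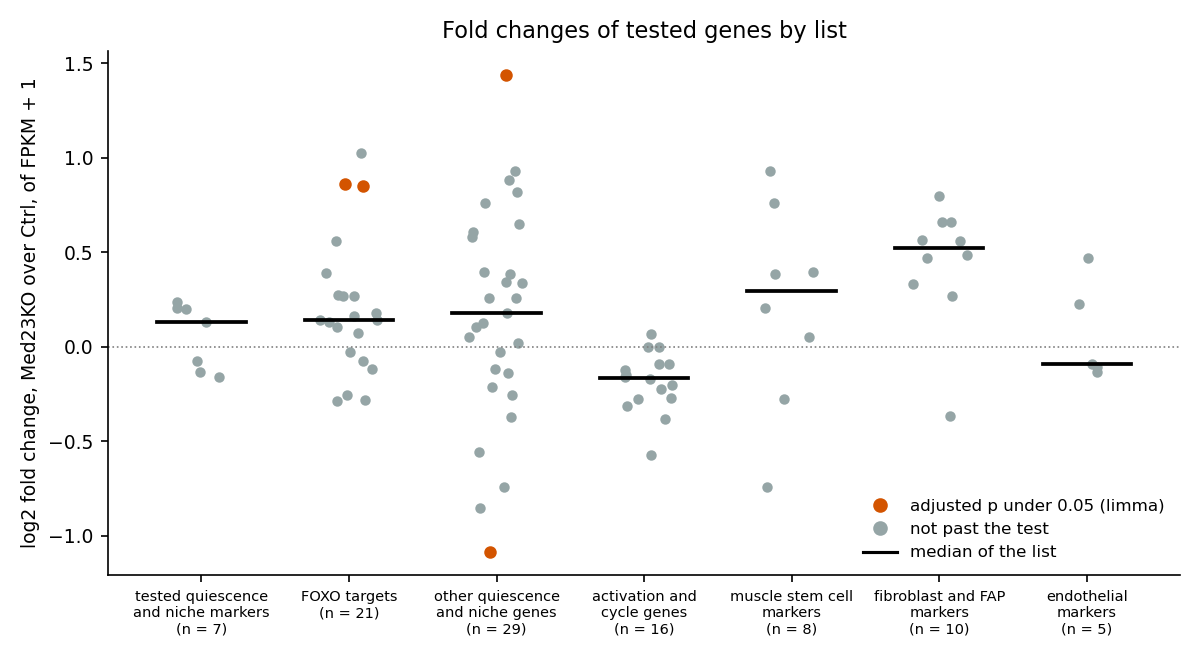
Log2 fold changes of FPKM + 1, Med23KO over Ctrl, of the tested genes of each list (FAP, fibro-adipogenic progenitor); points are genes, orange points passed limma's test at adjusted p under 0.05 and black lines are list medians. The 7 tested markers lie between -0.16 and 0.24, the cell cycle list lies mostly below 0 (median -0.16) and the fibroblast list mostly above it (median 0.52).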

How the data were processed

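RNA of 6 libraries, 3 Med23KO and 3 Ctrl, grouped by title, was measured as strand-specific poly(A) RNA-seq. FastQC, cutadapt, STAR, Cuffdiff and the mm10 build are named in the submitters' processing notes, without versions. The annotation and strand counting were not given in those sources. The authors deposited 1 table of FPKM per library, as Cuffdiff scales them. Their Cuffdiff p-values and q-values, with a test statistic (a score), are in the same deposited table. The columns for both groups are also deposited FPKM. The deposited log2 fold change column was left aside because some cells hold a spreadsheet error. Of 12368 rows named by Ensembl identifier alone, 12316 matched a GENCODE vM21 symbol, and all 10 markers were already named by symbol. Coordinates are from GENCODE vM21 (mm10), sequences from RefSeq (GRCm38.p6).

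No count model was fitted, as FPKM are scaled values. Depth is unknown: at most 25.3% of low genes (mean under 0.1 FPKM) of any pair of libraries shared 1 ratio within 0.03 (log2), so whole fragments could not be recovered. Values were transformed to log2(FPKM + 1), the 12336 genes averaging 1 FPKM or more were kept, and limma 3.58.1 in R 4.3.3 was fitted with a mean-variance trend and group as its only term. Tests were two-sided, with Benjamini-Hochberg adjustment over all tested genes and a threshold of 0.05. The pseudocount understates the change of low genes. A marker counted as expressed with at least 1 FPKM in each library. The 10 markers and all gene lists were chosen with earlier results of these data known. Named were the 10 markers, Med23, genes of the partner lists, and in each other list up to 4 genes with the smallest adjusted p plus genes past the threshold. Cdkn1b, Trim63, Myod1, Mki67, Pax7, Ptprc, Pecam1, Lyz2, Laptm5, Ngfr, Col3a1, Pi16 and Dpt were named outside it. Some listed genes are counted but not reported by name here. The choice of ratios between genes followed a look at their values.

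The fit was tested on simulated Med23KO and Ctrl values of 12336 genes with 200 changed: 43.3%, 64.2% and 98.5% of genes changed 1.5-fold, 2-fold and 4-fold were recovered, with 7 false calls of 144 and 0 calls when none was changed. Alternatives covered the pseudocount, the filter, normalization, the variance model, library weights, a replicate block, each library left out and the authors' q-values.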

Additional observations from a re-analysis of the deposited data

How the results depend on the processing

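The 7 tested markers stayed at adjusted p at or above 0.05 in all limma fits with another pseudocount, filter, normalization, variance model or library weights, and in all 6 fits without 1 library. The number of markers called was 1 in the fit with the replicate number as a block (Cxcr4, log2 fold change 0.20, adjusted p = 0.0486, where 22.3% of all genes passed and 5 of the 10 tested fibroblast markers were higher) and 1 by the authors' q-values (Tek, log2 ratio of the authors' FPKM -0.73, q = 0.0235). Whether replicate numbers pair the libraries was not settled by the check used. Same-numbered libraries had correlations of deviations from their group means of 0.437, -0.016 and 0.563. Med23KO replicates 1 and 3 correlated best with the Ctrl library of their own number, and Med23KO replicate 2 with Ctrl replicate 1 (0.337). Small fold changes turned with single libraries: over the fits without 1 library the log2 fold change of Cd34 ran from -0.0036 to 0.66, of Vcam1 from -0.038 to 0.36, of Foxo1 from -0.13 to 0.011 and of Foxo3 from -0.32 to 0.092. The cause was not tested. The number of the 10 markers whose groups did not overlap was 1 with all libraries (Tek), 3 after scaling to equal medians (with Cxcr4 and Sdc4), 2 after quantile normalization (with Cxcr4) and 2 to 3 without 1 library. Over all tested genes the share without overlap was 24.7% with all libraries, 25.03% with equal medians, 25.15% after quantile normalization and 28.99% to 45.24% without 1 library, highest without Med23KO replicate 3. The number expressed was 8 at 0.5 FPKM and 6 at 5 FPKM, against 7 at 1 FPKM. All genes called were 359 (184 higher, 175 lower). They were 157 without the filter, 549 (351 and 198) with libraries scaled to equal medians, 1700 with library weights, whose estimation did not fully converge, 2757 with the replicate block, 2054 by the authors' q-values and 13 to 1144 without 1 library (13 without Med23KO replicate 2, 1144 without Med23KO replicate 3). The ratios of Sdc1 over Sdc4 and Sdc3, Sdc3 over Sdc4 and Ackr3 over Cxcr4 kept their direction in each of the 7 alternatives. Depth is unknown, so for Tek, Chrdl2 and Calcr counting error has no estimate.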
